A study of Mus musculus with 4 samples.

Results

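Mouse chromosome 13 was read here through 846 array probes outside its histone genes. The probes were those placed on chromosome 13 (mm9) by the array's own annotation, whose gene name did not start with Hist, and whose signal was well above background on all 4 arrays. They were 846 of the 2254 non-histone probes of the chromosome (37.5%) and of the 23607 probes of the whole array that met the same detection rule, out of 56605 non-control probes. They carried 560 gene names, 188 of them with more than 1 probe, and lay between positions 3500382 and 120285071. The chromosome was selected on its knockout minus wild-type differences, without and with LPS, which were low on it, and its probes were chosen by their detection flags. The genotype differences below therefore describe that choice and were not tested.

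Each array held RNA of 1 sample of RAW264.7 cells, an established line of macrophage-like cells from a tumour of a male mouse. The groups, of 1 array each, were wild-type cells without LPS, wild-type cells with LPS, Mfp2-/- cells without LPS and Mfp2-/- cells with LPS. Mfp2 is the product of Hsd17b4 and catalyses steps of fatty acid beta-oxidation in peroxisomes, and LPS (lipopolysaccharide) is a component of the bacterial outer membrane that macrophages sense through Toll-like receptor signalling. The dose and duration of LPS, how the knockout was made and whether it was 1 clone were not given in the sources used here. With 1 array a group there was no replicate check on any difference, and no p-value was computed.

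Chromosome 13 of the mouse carries a large histone gene cluster, a group of serpin genes whose products inhibit proteases, clusters of zinc finger genes and the Naip genes, whose products sense bacterial proteins inside the cell. It also carries Ly86 and Cd180, which encode the 2 partners of a receptor complex that tempers LPS signalling. The transcript level of a gene is set mostly by its own promoter and enhancers, and in part by features that neighbouring genes share over long stretches, such as copy number and chromatin. Neither of the latter was measured in these samples.

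The probes that follow are those with a gene symbol that were at least 2-fold lower in the knockout both without and with LPS. The other Rasa1 probes were added because probe 3 disagreed with probe 1 without LPS. The central 30 bases of each 60-base probe (bases 16 to 45 of the array design's sequence) are written 5′ to 3′, and the position given is that of the whole probe on mm9. They show which stretch of each gene the signal came from. No base is capitalised.
Serpinb6b, chr13:33070776-33070835, plus strand: cagcaatactgggatctcaattttttggtt
Gadd45g, chr13:51943733-51943792, plus strand: ctgctctttcaaaaaacggatcccgggcaa
Kif13a, chr13:46844542-46844601, minus strand: accggtagtattttactaccatctgtttaa
Nsd1, chr13:55419594-55419653, plus strand: gagtccccataaacatgtactgtaattctt
Zfp369, chr13:65398983-65399042, plus strand: gggaaaccacctagcaggcagccagtgaaa
Rasa1 probe 1, chr13:85355480-85355539, minus strand: cctttgtaagctatctgtgcagaatattgc
Rasa1 probe 2, chr13:85356600-85357829, minus strand: catgatcatgtttttagatgaacttgggaa
Rasa1 probe 3, chr13:85390178-85390237, minus strand: cacagtaataattatagaatagaaacattc
Probe 2 of Rasa1 is placed over a stretch longer than the probe itself. Whether each probe lies in a coding part or an untranslated part was not determined.

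The arrays were alike in brightness. Between 47.4% and 49.7% of non-control probes were well above background on each, none of the 846 probes was saturated, and the 75th percentile of the signal, by which each array was scaled, was 358, 323, 370 and 303 in the order wild type, wild type with LPS, knockout and knockout with LPS. Hsd17b4 stood at 12.5 and 6.88 times that percentile in wild type and knockout without LPS, and at 9.03 and 4.01 times with LPS. Its probe was thus lower on both knockout arrays but above background there; whether it lies within the altered part of the gene is not known here. All 9 macrophage marker genes were above background on all 4 arrays, against none of the 3 fibroblast, 3 B cell, 3 epithelial and 3 endothelial genes. Cd4 and Cd3e, of the 4 T cell genes, were above background on all 4.

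Without LPS, transcripts of chromosome 13 were lower in the knockout than in the wild type across most of the chromosome. A difference is given throughout as log2 of the knockout's scaled signal minus that of the wild type. Its median over the 846 probes was -0.17, against 0.04 over the 21725 probes of the other 18 autosomes. Each probe was then set against the median of the other autosomes' probes in the same of 20 bins of mean signal, and the median of these matched differences was -0.206, which is 86.7% of the level of the reference probes. Below the reference median for their signal lay 669 probes, or 79.1%. The same share on each of the other autosomes was between 45.8% and 51.8%. These arrays read bulk RNA, so a lower level in every cell and a much lower level in some of the cells cannot be told apart.

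With LPS, chromosome 13 was lower in the knockout by nearly the same amount. The median was -0.14 over its probes and 0.07 over the other autosomes, and the matched median was -0.202, or 86.9% of the reference level. In this comparison 612 probes (72.3%) lay below the reference median for their signal, against 45.7% to 53.7% on the other autosomes. The pair of arrays with LPS shares no array with the pair without it. It is still not an independent check. The chromosome was selected on both comparisons, and all arrays shared a slide.

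No other autosome stood near these values. Without LPS their matched medians ran from -0.01 on chromosome 15 to 0.03 on chromosome 16, with an SD of 0.0107 over the 18 chromosomes. With LPS they ran from -0.03 on chromosome 5 to 0.03 on chromosome 18, with an SD of 0.0140. Chromosome 13 was the lowest of 19 in both comparisons.

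**Figure D1:**
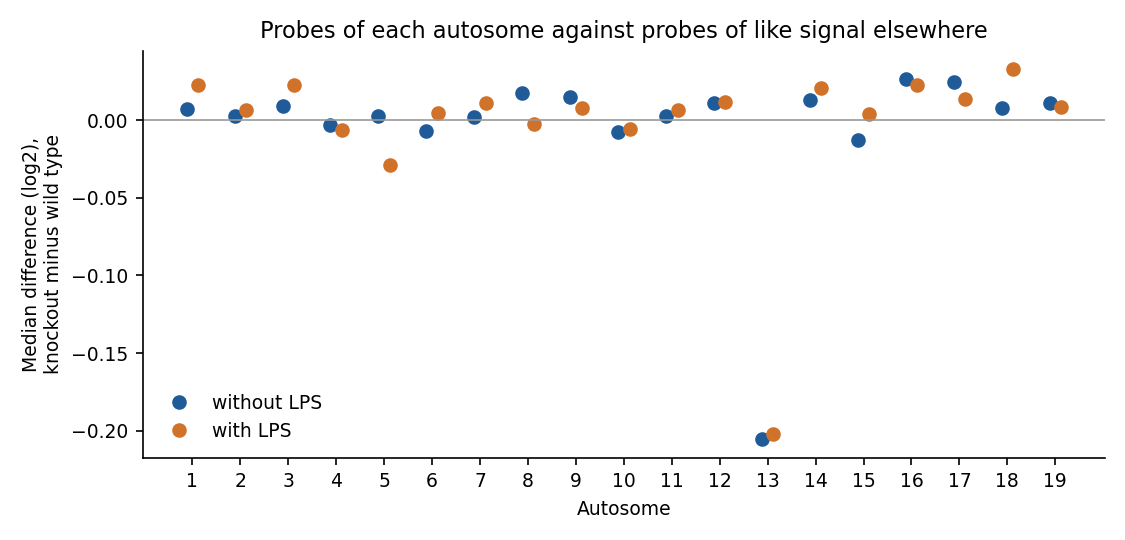
Median difference between knockout and wild type (log2, vertical axis) of the probes of each autosome (horizontal axis), after subtracting the median of probes of like signal on other autosomes; blue points are the arrays without LPS and orange points those with LPS. Chromosome 13 lies at -0.206 and -0.202, and the other 18 autosomes lie between -0.03 and 0.03.

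The levels themselves showed which arrays were low. The median member stood at 1.80 times the array's 75th percentile in the wild type, 1.70 in the wild type with LPS, 1.53 in the knockout and 1.62 in the knockout with LPS. The median probe of the other autosomes stood at 1.70, 1.68, 1.76 and 1.73 in the same order. Members were thus lower on both knockout arrays than on both wild-type arrays, while probes elsewhere were slightly higher on the knockout arrays.

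The difference was spread along the whole chromosome rather than set by one stretch. In 13 consecutive windows of 10 Mb, holding 10 to 123 probes each, the median matched difference was below 0 in all 13 without LPS and in all 13 with LPS. Without LPS the medians ran from -0.12 in window 3 to -0.29 in window 4. With LPS they ran from -0.10 in window 3 to -0.40 in the last, which held only 10 probes; the next lowest was window 5, at -0.31. Window 1 stood at -0.14 and -0.24, window 6, with the most probes, at -0.27 and -0.25, and window 12 at -0.19 and -0.12. In 5 Mb windows all 25 medians were below 0 in both comparisons.

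Windows of the other autosomes were centred near 0. Of their 240 windows, 106 (44.2%) had a median below 0 without LPS and 97 (40.4%) with LPS. Their medians spanned -0.206 to 0.209 without LPS and -0.205 to 0.285 with LPS, and only 5 (2.08%) and 7 (2.92%) were as low as the highest window of chromosome 13. All 13 windows of chromosome 13 lay below the 5th percentile of the others, which was -0.07 without LPS and -0.08 with LPS. The lowest window elsewhere was that starting at 90 Mb on chromosome 12, with 17 probes, at -0.206 and -0.205.

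**Figure D2:**
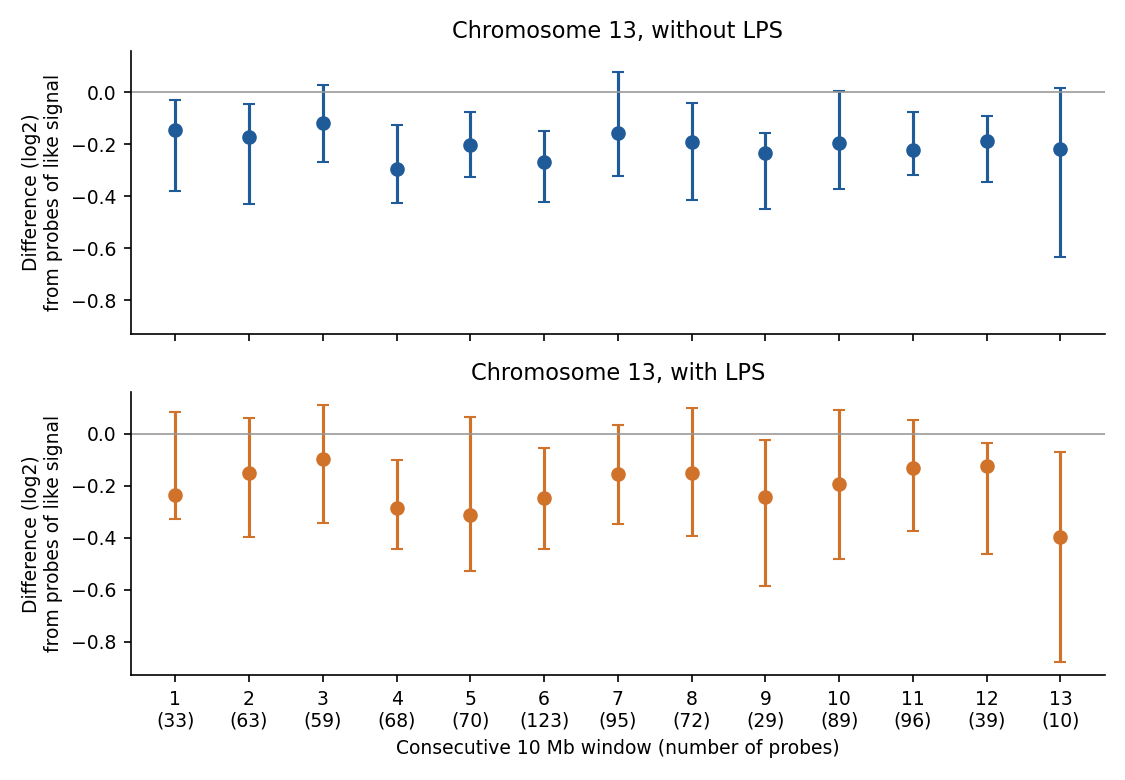
Difference between knockout and wild type (log2, after subtracting the median of probes of like signal on the other autosomes) in the 13 consecutive 10 Mb windows of chromosome 13, without LPS above and with LPS below; points are medians, bars run from the 25th to the 75th percentile over probes, and the number of probes is in parentheses. All 13 medians lie below 0 in both panels, from -0.12 to -0.29 without LPS and from -0.10 to -0.40 with LPS.

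The difference was a shift of the distribution more than a tail. Without LPS the 10th, 25th, 50th, 75th and 90th percentiles of the members' differences minus those of the other autosomes were -0.25, -0.22, -0.21, -0.20 and -0.22 on the log2 scale. With LPS they were -0.25, -0.22, -0.20, -0.16 and -0.18. The spread was similar, with an interquartile range of 0.331 on chromosome 13 and 0.315 elsewhere without LPS, and of 0.449 and 0.396 with LPS.

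**Figure D3:**
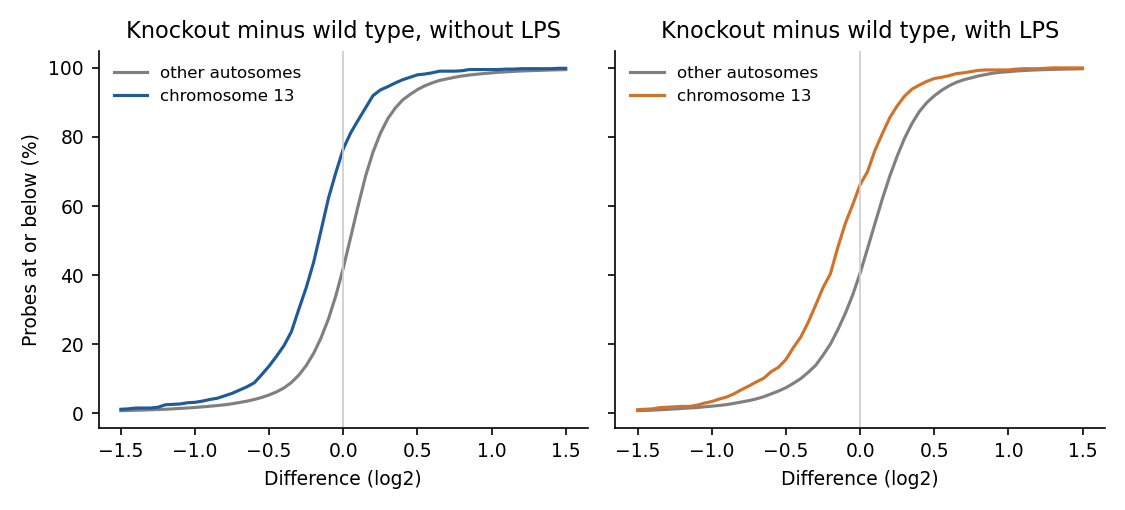
Cumulative share of probes (percent, vertical axis) at or below each difference between knockout and wild type (log2, horizontal axis), without LPS at left and with LPS at right; the grey line is the 21725 probes of the other autosomes and the coloured line the 846 probes of chromosome 13. The coloured line lies to the left of the grey one, with medians of -0.17 against 0.04 without LPS and of -0.14 against 0.07 with LPS.

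Counts of probes went the same way, but the 2-fold counts with LPS lay near those of some other autosomes. Without LPS, 648 of the 846 differences (76.6%) were below 0, against 43.3 percent of all 23607 probes above background. A difference of at least 2-fold downward was found at 27 probes (3.19%), against 1.76 percent of all probes, and 2-fold upward at 4 (0.473%), against 1.41 percent. With LPS, 560 (66.2%) were below 0, against 41.4 percent. There 29 (3.43%) were at least 2-fold lower, against 2.15 percent, and 5 (0.591%) at least 2-fold higher, against 1.08 percent. Among the other autosomes, the largest share at least 2-fold lower was 2.35% without LPS and 3.25% with LPS. The smallest share at least 2-fold higher was 0.785% without LPS and 0.580% with LPS. With LPS the 2-fold counts thus did not set chromosome 13 clearly apart. At least 1.5-fold lower were 81 members without LPS (9.57%, against 4.41 percent of all probes) and 105 with LPS (12.4%, against 6.08 percent). At least 1.5-fold higher were 13 (1.54%, against 4.46 percent) and 19 (2.25%, against 5.38 percent). Most of the lower members thus differed by much less than 2-fold.

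Below 0 in both comparisons were 465 members (55%), against 22.7 percent of all probes. Counted with 1 probe a gene, 410 of 560 gene names (73.2%) were below 0 without LPS, 371 with LPS and 305 in both. The same count over genes elsewhere is not given here, and the shares of all probes count probes, not genes. From member to member, the sizes of the pair of differences went together only loosely, with Pearson's r of 0.326 and Spearman's rho of 0.312 over the 846 probes, against 0.398 and 0.244 over the 21725 probes elsewhere. The probes of 1 gene share a transcript and all members share the 4 arrays, so these are descriptions.

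Repeated spots gave the spread of the array measurement itself. Over 275 probes printed several times on each array, the technical SD of a difference was 0.0952 without LPS and 0.116 with LPS. The SD of repeated spots was 0.0499 and 0.0567 on the wild-type arrays, without and with LPS. It was larger on the knockout arrays, at 0.0811 and 0.101. This spread covers the array only and not the culture, the RNA extraction or the labelling.

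Bright and dim members were lower alike. In 5 equal groups by mean signal from dimmest to brightest, the median on chromosome 13 minus that elsewhere was -0.16, -0.18, -0.25, -0.24 and -0.20 without LPS, and -0.22, -0.18, -0.19, -0.22 and -0.18 with LPS. The detection rule itself could have shaped the set, since a probe had to be above background on the knockout arrays as well. Just outside it, the 47 non-histone probes above background on only 3 arrays had medians of -0.12 and -0.70, against 0.03 and -0.16 elsewhere. The 77 above background on 2 arrays had medians of -0.11 and -0.29, against -0.04 and -0.09. The 119 on 1 array had medians of 0.18 and -0.04, against 0.03 and -0.07. These 119 were thus not lower than such probes elsewhere in either comparison. The 1165 probes above background on no array had medians of -0.21 and -0.05, equal to the -0.21 and -0.05 of such probes elsewhere.

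**Figure D4:**
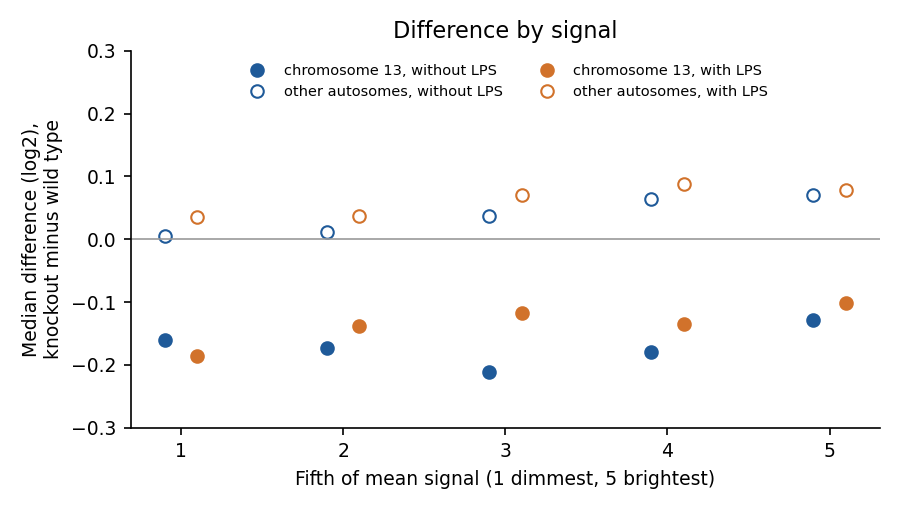
Median difference between knockout and wild type (log2, vertical axis) in 5 equal groups of probes by mean signal (horizontal axis, 1 dimmest to 5 brightest); filled points are chromosome 13, open points the other autosomes, blue without LPS and orange with LPS. In every group chromosome 13 lies below the other autosomes, with differences of -0.25 to -0.16 without LPS and of -0.22 to -0.18 with LPS.

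Kinds of transcript differed in how far they were below the reference. The 558 probes to RefSeq messenger RNAs had matched medians of -0.24 without LPS and -0.21 with LPS, with 84.6% and 75.8% of them below the reference median. The 78 probes to Ensembl transcripts stood at -0.09 and -0.16, the 37 to RefSeq non-coding RNAs at -0.07 and -0.23, and the 56 to long intergenic RNA regions at -0.12 and -0.02. Strand made little difference, with -0.22 and -0.20 on the plus strand and -0.20 and -0.20 on the minus strand.

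The 50 probes of zinc finger genes, which encode DNA-binding proteins and lie in clusters, had matched medians of -0.09 and -0.13, against -0.21 and -0.21 for the other 796. Most of the clustered ones lay in window 7, where 28 zinc finger probes stood at -0.10 and -0.11 and the other 67 probes at -0.20 and -0.17. In window 3 the order was turned, at -0.15 and -0.18 for 15 zinc finger probes and -0.12 and -0.09 for the other 44.

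The 37 histone probes of the chromosome that were above background on all 4 arrays were left out of the set. Their matched medians were -0.10 without LPS and -0.11 with LPS, and 2 of them were at least 2-fold lower in each comparison. They differed far more with LPS than with genotype. Their median response to LPS was -1.96 in the wild type and -1.86 in the knockout.

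Few members differed by at least 2-fold in both comparisons. At least 2-fold lower in both comparisons were 7 probes (0.827%), against 0.61 percent of all probes, and higher in both was 1 (0.118%), against 0.424 percent. The 7 were probes of Serpinb6b, Gadd45g, Kif13a, Nsd1, Zfp369 and Rasa1 and a long intergenic RNA region at the start of the chromosome, and the 1 was a transcript annotated only as NAP001637-001. Serpinb6b, Gadd45g and Kif13a stayed at least 2-fold lower in both comparisons when the background was corrected by the normexp method. Nsd1, Zfp369, Rasa1 and the intergenic region did not, and they are named after their values were seen.

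Serpinb6b, a serpin of the intracellular clade that inhibits serine proteases, stood at 5.39 times the array's 75th percentile in the wild type and 1.19 in the knockout. With LPS it stood at 18.2 and 2.93. Both knockout arrays lay below both wild-type arrays, and the signal was higher with LPS in both genotypes. The difference was -2.18 without LPS and -2.64 with LPS, or 4.53-fold and 6.22-fold lower.

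Gadd45g encodes a stress-inducible protein that binds cell cycle and MAP kinase regulators. Its level was 5.70 in the wild type and 1.07 in the knockout, and with LPS 7.06 and 1.78. The knockout arrays were again the lower ones, by 5.31-fold and 3.97-fold. Its LPS response was smaller in size, at 0.31 in the wild type and 0.73 in the knockout.

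Kif13a, a kinesin motor that carries vesicles along microtubules, was a dim probe, at 0.664 in the wild type, 0.184 in the knockout, 0.580 in the wild type with LPS and 0.0699 in the knockout with LPS. Its differences of -1.85 and -3.05 became -1.19 and -1.49 after normexp correction. Its other probe was above background on no array.

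Nsd1, a histone H3 lysine methyltransferase, was at 1.41 in the wild type and 0.607 in the knockout, and with LPS at 0.972 and 0.347. Zfp369, a zinc finger protein, was at 0.317 and 0.0848 without LPS and at 0.722 and 0.271 with LPS. In each treatment both were lower on the knockout array. After normexp correction the differences of Nsd1 were -0.90 and -0.97 and those of Zfp369 -0.82 and -0.94.

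Rasa1 encodes a GTPase-activating protein that switches Ras off. Its probe 1 stood at 8.98 and 3.87 without LPS and at 12.6 and 6.13 with LPS, wild type first, which is 2.32-fold and 2.06-fold lower in the knockout. Probe 2 gave differences of -1.08 and -0.71. Probe 3, a dim probe to an Ensembl transcript of the gene farther from those 2, gave 1.80 and -0.26, so the probes of this gene did not go the same way without LPS.

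**Figure D5:**
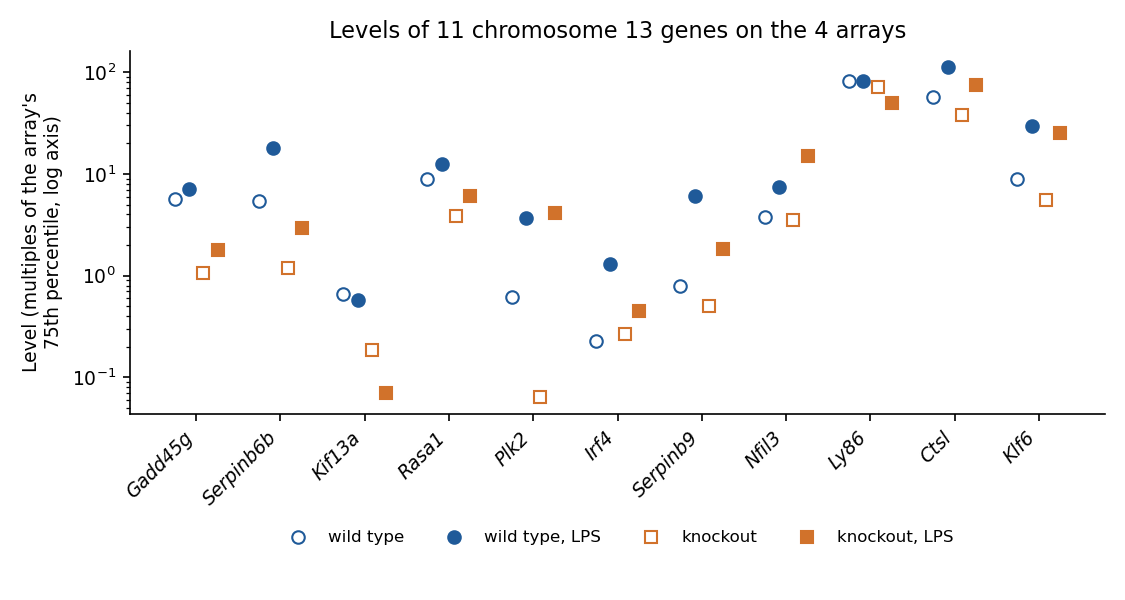
Level of 11 genes of chromosome 13 (multiples of the array's 75th percentile, log axis) on each of the 4 arrays; blue circles are wild type, orange squares knockout, open symbols without LPS and filled symbols with LPS. Serpinb6b, Gadd45g, Kif13a and Rasa1 are lower on both knockout arrays, Plk2 is low only on the knockout array without LPS, and Nfil3 is highest on the knockout array with LPS.

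Genes of innate immunity and LPS sensing were the list with the lowest median under LPS. The lists were chosen with earlier results of these data known, so this order partly describes that choice and was not tested. Of 37 genes listed, 26 had a member probe, and the brightest member probe of each gene is used here and in the lists that follow. Without LPS their median difference was -0.21, with 21 below 0, 3 at least 2-fold lower and none higher. Over all members the median was -0.17, with 76.6% below 0 and 3.19% at least 2-fold lower, and over all probes of the array 0.04, 43.3 percent and 1.76 percent. With LPS the list's median was -0.49, with 22 below 0, 7 at least 2-fold lower and 1 higher. The same values were -0.14, 66.2% and 3.43% over all members, and 0.06, 41.4 percent and 2.15 percent over all probes. In both comparisons 18 of the 26 were below 0, against 55% of all members and 22.7 percent of all probes. The other lists are to be read beside the same shares. List values are of differences not matched by signal. Matched medians, without and with LPS, were -0.28 and -0.55 for innate genes and -0.21 and -0.29 for lysosome and vesicle genes. They were -0.17 and -0.49 for sterol and lipid genes and -0.20 and -0.31 for mitochondrial proteins. Cell cycle genes stood at -0.28 and -0.05, ribosome and RNA genes at -0.23 and -0.10, and zinc finger genes at -0.09 and -0.12.

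Ly86, which encodes MD-1, the secreted partner of the Toll-like protein Cd180, stood at 82.7 in the wild type, 82.1 in the wild type with LPS, 71.3 in the knockout and 49.4 in the knockout with LPS. Its difference was -0.21 without LPS and -0.73 with LPS, so the low array was mainly the knockout with LPS. The 4 probes of Cd180 itself differed by -0.47 to -0.12 without LPS and by -0.32 to -0.09 with LPS.

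Irf4, a transcription factor induced in activated immune cells, stood at 0.228 and 0.265 in wild type and knockout without LPS. With LPS it stood at 1.30 and 0.446. On this probe it was thus similar between the genotypes without LPS and 2.92-fold lower in the knockout with it. The response to LPS was 2.52 in the wild type and 0.75 in the knockout. After normexp correction the difference with LPS was -1.16, and the responses were 1.81 and 0.51. Another Irf4 probe, above background on only 1 array, gave differences of 1.87 without LPS and -2.28 with LPS.

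Serpinb9, an inhibitor of granzyme B, stood at 0.789 and 0.506 without LPS and at 6.07 and 1.81 with LPS. The knockout was lower in both treatments, by -0.64 and -1.75. Serpinb1a, an inhibitor of neutrophil proteases, was at 1.07 and 1.66 without LPS and 0.767 and 0.366 with LPS, so its difference turned from 0.63 to -1.07. Serpinb6a lay at -0.28 and -0.16. These serpins are related in sequence, and cross-hybridisation between them was not tested.

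Sema4d, a semaphorin at the cell surface, stood at 16.2 and 9.71 without LPS and at 15.9 and 6.07 with LPS, a difference of -0.74 and -1.39. Dusp22, a dual-specificity phosphatase, differed by -0.30 and -1.09. Hk3, a hexokinase of myeloid cells, stood at 17.7 and 15.3 without LPS and at 45.5 and 26.0 with LPS. Dok3, an adaptor protein that dampens immune receptor signalling, differed by -0.27 and -0.71. In each of these the knockout was farther below the wild type with LPS than without.

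Several innate genes differed less, or in 1 treatment more than in the other. Syk, a tyrosine kinase of immune receptors, had 4 probes; the brightest was at 6.71 and 7.5 without LPS and at 18.3 and 18.1 with LPS, so the signal was higher with LPS in both genotypes and similar between them. Naip5, a sensor of bacterial flagellin, differed by -0.06 and -0.20, and the brightest probe of Ripk1, a kinase of death and inflammatory signalling, by -0.12 and 0.11. The probe of Il6st, the shared receptor chain of the interleukin-6 family, differed by -0.42 and 0.10. Klf6, a transcription factor induced early after stimulation, stood at 9.01 and 5.49 without LPS and at 29.3 and 25.3 with LPS, a difference of -0.71 and -0.21. Gpr137b, a lysosomal membrane protein, differed on its brightest probe by -0.59 and -0.46, and Naip6, a relative of Naip5, by 0.20 and -0.76.

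With LPS 22 of the 26 innate genes were below 0. Unlike these, Nfil3, a transcription factor of the bZIP family, was higher in the knockout with LPS. Its first probe stood at 3.76 and 3.55 without LPS and at 7.38 and 15 with LPS, a difference of -0.08 and 1.02. The other probe gave -0.08 and 1.06. Under quantile normalization the LPS differences were 0.94 and 0.97, just under 2-fold. Elmo1 was higher on its brightest probe in both treatments, by 0.40 and 0.34. Its 4 probes ranged from -0.34 to 0.40 without LPS and from -0.07 to 0.34 with LPS.

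All 8 probes at least 2-fold higher in 1 or both comparisons can be named, after their values were seen. Without LPS they were Rnf144b (1.09), Pde4d (1.42), probe 3 of Rasa1 (1.80) and NAP001637-001 (1.17). With LPS they were both Nfil3 probes, Nkd2 (1.01), Gm30302 (1.28) and NAP001637-001 again (1.22). Rnf144b, a ubiquitin ligase, stood at 1.78 and 3.77 without LPS and at 0.394 and 0.306 with LPS, so it was the knockout array without LPS that was high. The probes of Pde4d, Gm30302 and NAP001637-001 were all dim.

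Of 20 lysosome and vesicle genes listed, 19 had a member probe. Without LPS 16 were below 0 (median -0.16), against 76.6% of all members (median -0.17) and 43.3 percent of all probes, so the list stood where the chromosome did. With LPS 17 were below 0 (median -0.21), against 66.2% (median -0.14) and 41.4 percent. None was 2-fold lower or higher, and 15 were below 0 in both. Ctsl, cathepsin L, a lysosomal protease, stood at 57.0 and 37.8 without LPS and at 112 and 74.1 with LPS, a difference of -0.59 and -0.60. The knockout was lower in both treatments, and the signal was higher with LPS in both genotypes. Gdi2 (-0.06 and -0.21), a regulator of Rab proteins, and Lman2 (-0.11 and 0.06), a cargo receptor of the secretory pathway, differed little.

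Mitochondrial proteins gave 21 members of 23 listed. Below 0 were 19 without LPS, against 76.6% of all members and 43.3 percent of all probes, with a median of -0.14 that was no lower than the -0.17 of all members. With LPS 20 were below 0, against 66.2% and 41.4 percent, with a median of -0.24. In both 19 were below 0, against 55% and 22.7 percent, and none was 2-fold lower or higher. Ndufs6, a subunit of complex I, stood at 144 and 127 without LPS and at 131 and 98.2 with LPS. Uqcrfs1, the Rieske protein of complex III, differed by -0.19 and -0.38, and the brightest probe of Sdha, a subunit of succinate dehydrogenase, by -0.08 and -0.32. Cox7c, of complex IV, differed by -0.13 and -0.17. Each of these named genes was lower in the knockout in both treatments by well under 2-fold.

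Sterol and lipid genes, with 12 members of 18 listed, had a median of -0.09 without LPS, against -0.17 over all members. Of these 12, 9 were below 0, none was 2-fold lower and 1, Pde4d, was higher. The list was broad, as it holds Lgals8, a galectin, and the phosphodiesterase genes Pde4d and Pde8b. With LPS the median was -0.41, against -0.14 over all members, and all 12 were below 0, against 66.2% of members and 41.4 percent of all probes. There 1 was 2-fold lower and none higher, and 9 were below 0 in both. Idi1, an isomerase of the isoprenoid pathway, differed by -0.10 and -0.45. Mboat1, a lysophospholipid acyltransferase, stood at 16.3 and 21.1 without LPS and at 5.49 and 3.10 with LPS, so the sign of its difference turned from 0.37 to -0.82. Srd5a1, a steroid reductase, differed by -0.22 and -1.39, and the latter became -0.55 under normexp correction.

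Cell cycle and DNA repair genes gave 31 members of 34 listed. Without LPS 24 were below 0, a share near the 76.6% of all members (43.3 percent of all probes), with a median of -0.22 and 2 being 2-fold lower. With LPS 15 were below 0, against 66.2% of members and 41.4 percent of all probes, the median was 0.00 against -0.14 over all members, and 1 was 2-fold lower. In both 14 were below 0. Ccnb1, cyclin B1, stood on its brightest probe at 26.1 and 20.6 without LPS and at 5.30 and 7.65 with LPS. It was lower in the knockout without LPS and higher with it, and its other 3 probes went the same way. Cks2, a partner of cyclin-dependent kinases, did likewise, at -0.50 and 0.29, as did Depdc1b, at -0.32 and 0.47. Gmnn, geminin, an inhibitor of replication licensing, did not, at -0.04 and -0.46, nor did Dek, a chromatin protein, at -0.19 and -0.24. Whether the difference between the treatments was larger than replicate error could not be tested.

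Plk2, a polo-like kinase induced by stress, had the largest single difference without LPS. Its probe stood at 0.615 in the wild type and 0.0638 in the knockout without LPS, and at 3.65 and 4.17 with LPS. Only the knockout array without LPS was low, 9.64-fold below the wild type. At that dim level the difference of -3.27 became -1.60 under normexp correction.

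Genes of the ribosome, RNA processing and translation gave 25 members of 26 listed. Without LPS their median of -0.17 equalled that of all members, and 21 were below 0, against 76.6% of members and 43.3 percent of all probes. With LPS the median was -0.02, against -0.14 over all members, and 13 were below 0, against 66.2% and 41.4 percent. In both 12 were below 0, and none was 2-fold lower or higher. Rps23, a protein of the small ribosomal subunit, stood at 285 and 285 without LPS and at 332 and 334 with LPS, so it hardly differed between the genotypes on these arrays. Nsun2, an RNA methyltransferase, differed by -0.15 and -0.02, and Btf3, a part of the nascent-polypeptide complex, by -0.11 and -0.06. Nsa2, a ribosome assembly factor, had 1 probe at -0.12 and -2.92, and its other 2 probes at -0.13 and -0.07 and at -0.17 and 0.11, so the low value with LPS was that of 1 probe. Of the 31 zinc finger genes, 20 were below 0 without LPS (median -0.07) and 19 with LPS (median -0.05), with 1 at least 2-fold lower in each and 14 below 0 in both, against the same shares.

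The response to LPS within each genotype was not used in choosing the chromosome. Chromosome 13 stood close to the other autosomes in it. In the wild type the median response was -0.05, against -0.0022 elsewhere, and the matched median of -0.05 was the lowest of the 19 autosomes, the next being chromosome 2 at -0.03. In the knockout the median was 0.01, against 0.03 elsewhere, and the matched median of 0.01 was 13th from the lowest. The matched medians of other autosomes spanned -0.03 to 0.03 in the wild type and -0.04 to 0.08 in the knockout. The responses share their untreated and treated arrays with the genotype differences, so the values are not independent of them.

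At least 2-fold lower with LPS were 68 members (8.04%) in the wild type, against 7.36 percent of all probes, and 86 (10.2%) in the knockout, against 10.6 percent. At least 2-fold higher were 58 (6.86%), against 7.72 percent, and 81 (9.57%), against 10.3 percent. At 1.5-fold, 142 (16.8%) were lower and 130 (15.4%) higher in the wild type, against 16.5 and 15.7 percent, and 167 (19.7%) lower and 163 (19.3%) higher in the knockout, against 20.5 and 20.1 percent. Below 0 were 455 (53.8%) in the wild type, against 50.3 percent, and 416 (49.2%) in the knockout, against 48.3 percent. In both genotypes 52 (6.15%) were lower, against 5.78 percent, and 47 (5.56%) higher, against 6.32 percent. The members' shares were near those of the whole array.

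Some of the members with the highest wild-type response had a similar one in the knockout and others did not. The highest was that of 3930401B19Rik, at 3.53 in the wild type and 4.60 in the knockout, and BB713741 responded by 3.23 and 4.65; both are named after their values were seen. Tmem171, a membrane protein, stood at 2.13 without LPS and 21.7 with LPS in the wild type, and at 1.0 and 11.0 in the knockout. Glrx, glutaredoxin, which reduces protein disulfides, stood at 6.85 and 62.4 in the wild type and at 3.62 and 39.5 in the knockout. Both were lower in the knockout in both treatments, and with LPS the signal was higher by 10.2-fold and 11.0-fold for Tmem171 and by 9.11-fold and 10.9-fold for Glrx, wild type first. Lgals8, a galectin that marks damaged vesicles, responded by 2.52 and 2.65 on its dimmer probe and by 2.07 and 1.85 on its brighter one, the beta-tubulin gene Tubb2b by 2.16 and 2.27, and the pseudogene Marcksl1-ps4 by 2.90 and 3.24. Serpinb9 responded by 2.94 in the wild type and 1.84 in the knockout, and Irf4 by 2.52 and 0.75. Plk2 went the other way, with 2.57 and 6.03, its knockout value resting on the dim untreated array.

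Depdc1b, Ccnb1, Cenpp and Cep72 were among the named members with the lowest wild-type responses; Cenpp is not in the cell cycle list. Depdc1b responded by -3.06 in the wild type and -2.26 in the knockout, Ccnb1 on its brightest probe by -2.30 and -1.43, the centromere gene Cenpp by -2.44 and -1.94, and the centrosome gene Cep72 by -2.24 and -1.81. These 4, picked by their wild-type response, were lower with LPS in both genotypes and less so in the knockout. That contrast partly describes the pick. Other members of the cell cycle list went the other way or hardly differed, with Gmnn at -1.60 and -2.02, Dek at -1.42 and -1.47 and Tdp2, a DNA repair enzyme, at -1.01 and -1.29. The membrane protein Susd3, on its brighter probe, responded by -2.78 and -2.98, and Rnf144b by -2.17 and -3.62.

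By list, the median response was 0.34 in the wild type and 0.38 in the knockout for the 26 innate genes, with 6 and 5 at least 2-fold higher and 1 and 3 at least 2-fold lower. It was -0.33 and -0.18 for the 31 cell cycle genes, with 10 and 8 at least 2-fold lower and 2 and 2 higher. For the 12 sterol and lipid genes it was -0.33 and -0.45, with 4 and 5 lower and 2 and 2 higher. The medians over all probes of the array were -0.0033 in the wild type and 0.03 in the knockout. Of all probes, 7.36 percent in the wild type and 10.6 percent in the knockout were at least 2-fold lower. At least 2-fold higher were 7.72 and 10.3 percent.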

How the data were processed

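RNA from 4 samples was labelled with Cy3 and read on 4 one-colour Agilent arrays of design 074809, which shared 1 slide, so array position and group cannot be told apart. The deposited scanner files hold background-subtracted spot intensity and, as other values, flags for signal above background and for saturation; per the file headers they were made with Feature Extraction 10.7.1.1, while the submitters' processing notes name 9.5.1.1. A deposited series table holds intensity that followed quantile normalization of the same arrays.

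Spots of a probe were averaged, and log2 intensity was centred on each array's 75th percentile. Probe positions (mm9) came from the files; RefSeq names came from a GRCm38.p6 table by accession (569 of 846 members, 568 of them on chromosome 13 there), with 6 older symbols updated. Each member was compared with probes of the other autosomes in 20 signal bins. A probe counted as called from a 2-fold difference, with no p-value. The signal matching and the 2-fold count, but not the other steps, were tried on simulated data of independent probes. Python 3.11.15, numpy 2.4.6, pandas 2.3.3, scipy 1.17.1, matplotlib 3.10.9, R 4.3.3 and limma 3.58.1 (normexp) were used.

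Named genes were 10 genes of interest (of which Aoah had no member probe), those at least 2-fold different in both comparisons under the main, normexp and quantile settings, the 8 largest differences per direction under the same condition, and the 4 brightest of each list; others named are said to be chosen after their values were seen, or stand in a list. Members and lists were chosen with earlier results of these data known. No protein table was used here, so coding position could not be checked and only the central 30 bases of probes are printed. Results of some members are not reported here. The small number of arrays limits the precision.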

Additional observations from a re-analysis of the deposited data

How the results depend on the processing

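The median matched difference of chromosome 13 stayed below 0 in both genotype comparisons under every alternative run. Normexp background correction gave -0.163 without LPS (13 probes 2-fold lower, 0 higher) and -0.154 with LPS (14 lower, 2 higher). Probes 2-fold higher with LPS numbered 2 under quantile normalization, 3 under median centring and 2 in the deposited series table. The 422 brighter probes gave -0.222 without LPS (10 lower, 0 higher), 10 lower and 3 higher with LPS, and -0.0222 for the wild-type LPS response. Without a filter on dim probes, 2254 probes gave -0.0537 (166 lower, 83 higher), -0.0283 (154 lower, 70 higher) and a wild-type response of -0.00183; 1165 of these were above background on no array. With 1 probe for each gene the value without LPS was -0.194. Keeping histone genes gave LPS responses of -0.0705 in the wild type and -0.0349 in the knockout, the latter below 0 unlike the 0.00735 without them. A 1.5-fold threshold gave 81 lower and 13 higher without LPS and 105 and 19 with LPS.

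Chosen after seeing the data, the array surface cut into 4 equal parts gave -0.223 in part 2 and -0.186 in part 4 without LPS and -0.225 in part 1 and -0.167 in part 3 with LPS, and members placed on chromosome 13 by RefSeq gave -0.247, -0.225 and a wild-type response of -0.0711. Of 544 values of 68 named probes, 507 moved by less than the technical SD and 0 turned in sign while called. The cause of these moves was not tested. No paired analysis was possible because each group had 1 array. With 1 array a group no difference has a replicate check, and large differences of dim probes such as Plk2 and Kif13a shrank under normexp.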

Other observations

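Outside the autosomes, the 816 probes of chromosome X had matched medians of 0.01 without LPS and 0.03 with LPS. Of non-histone probes of chromosome 13 above background on only 1 genotype's array, 50 were so in the wild type and 65 in the knockout without LPS (43.5% in the wild type, against 38.8% on the other autosomes), and 69 and 44 with LPS (61.1% against 56.4%). One member, Rn28s1, lay on chromosome 11 in the RefSeq table.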
